A study of Mus musculus with 4 samples.

Results

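The regions described here were ATAC-Seq peaks of WT rib chondrocytes that lay inside introns, away from gene starts, and that were also called in cells lacking 2 Sox9 enhancers. A member was a WT peak on an autosome that overlapped a peak of the deletion library by at least 1 bp. Its summit, the position of highest signal, had to lie over 1 kb from every transcription start site (TSS) of a protein-coding gene, inside a protein-coding gene body and in no exon. Members were thus chosen by the peak calls of WT and the deletion library, and neither library's values can support the choice. These rules gave 29668 members, 34.7% of the 85396 shared autosomal WT peaks (34.4% to 35.1%), of 90971 WT peaks in all. Intervals given with shares are 95% exact binomial intervals, and they cover counting error only. The other shared peaks were 33474 intergenic, 19283 promoter and 2971 exonic peaks. Of 31101 intronic distal WT peaks, 95.4% were shared, and 1433 had no deletion peak.

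Introns hold many of the enhancers of mammalian genes. An enhancer is a stretch of DNA that transcription factors bind and that raises the activity of a promoter, often from a distance, and bound enhancers are depleted of nucleosomes, so that Tn5 can cut there. In chondrocytes, the cells that build cartilage, Sox9 with its partners Sox5 and Sox6 acts through such elements on genes of the cartilage matrix, such as Col2a1 and Acan. An open region does not show by itself which gene it acts on, and the host gene of an intronic peak is only the gene it lies in.

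All cells were primary chondrocytes from rib cartilage of newborn mice, used within 2 passages. WT had 1 library, and the deletion, homozygous for the loss of both E160 and E308, elements upstream of Sox9, had 1 library. The study describes the animals of both genotypes as littermates, from a line edited in C57BL/6J embryos, and how many animals went into a library was not given in the sources used here. Cho replicate 1 was a further library of the same cell type, whose label names no genotype, and the rule did not use it. Because each genotype had 1 library, every value below belongs to a library, and no p-value is given.

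The 3 libraries differed in size. WT had 90971 peaks, the deletion library 169591 and Cho replicate 1 76242 intervals, and the most frequent background pileup was 0.361, 0.626 and 1.37 reads, in the same order. Cho replicate 1 was called with 1 constant background and the other lists with local ones, so the size of its values cannot be set against theirs. The defining markers of chondrocytes were open at their promoters. The Sox9 promoter had a fold enrichment of 9.47 in WT, 8.68 in the deletion library and 18.6 in Cho replicate 1, and the Col2a1 promoter had 5.56, 5.04 and 4.65. The promoters of Acan and Matn1 had a peak in WT and the deletion library and no listed peak in Cho replicate 1.

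Sequences are given for 2 sets of members that the results turn on. All are windows on the plus strand of NCBIM37 (mm9), 5′ to 3′, with the WT summit at base 51. Capitals mark matches, on either strand, to AP-1 (TGANTCA), Sox (ACAAT), Runx (TGTGGT), TEAD (GGAATG), the NFI core (TTGGCA) or the CTCF core (AGGGGGC). The first set is the strongest member of each of 6 cartilage genes, named by rule. They lay at chr15:97831772-97831872 in intron 1 of 51 of Col2a1, chr7:86225813-86225913 in intron 1 of 16 of Acan, chr6:144023535-144023635 in intron 3 of 13 of Sox5, chr7:122897862-122897962 in intron 4 of 15 of Sox6, chr17:44797247-44797347 in intron 3 of 5 of Runx2 and chr8:110007359-110007459 in intron 5 of 23 of Wwp2.
Col2a1: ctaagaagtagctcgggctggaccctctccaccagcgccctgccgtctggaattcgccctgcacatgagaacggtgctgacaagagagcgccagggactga
Acan: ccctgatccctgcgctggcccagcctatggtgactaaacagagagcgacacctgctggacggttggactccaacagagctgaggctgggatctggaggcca
Sox5: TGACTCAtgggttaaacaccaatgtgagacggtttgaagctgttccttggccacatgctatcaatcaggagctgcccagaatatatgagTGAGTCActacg
Sox6: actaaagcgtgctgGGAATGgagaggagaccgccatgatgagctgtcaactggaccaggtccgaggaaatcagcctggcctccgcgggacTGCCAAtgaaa
Runx2: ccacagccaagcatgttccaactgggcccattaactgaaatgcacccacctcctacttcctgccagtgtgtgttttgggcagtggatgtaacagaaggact
Wwp2: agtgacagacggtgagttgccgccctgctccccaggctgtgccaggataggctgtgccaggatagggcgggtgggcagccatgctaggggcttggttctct
Of these, the Sox5 window held AP-1 matches at bases 1 and 90, and the Sox6 window held a TEAD match at base 15 and an NFI match at base 91. The other 4 windows held none of the 6 motifs, which says only that these letters are not in these windows.

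The second set is for comparison. It holds 3 of the 4 strongest members, which stood out by repeated or mitochondrial sequence, at chr9:24549555-24549655 in Tbx20, chr13:77578187-77578287 in 2210408I21Rik and chr6:103599150-103599250 in Chl1. It also holds 3 members with an AP-1 match within 20 bp of the summit and the highest fold enrichment in Cho replicate 1, chosen after their values were seen, at chr19:18964900-18965000 in Trpm6, chr1:180972164-180972264 in Smyd3 and chr1:84878285-84878385 in Fbxo36.
Tbx20: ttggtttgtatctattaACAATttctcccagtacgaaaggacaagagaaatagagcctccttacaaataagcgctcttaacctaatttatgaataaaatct
2210408I21Rik: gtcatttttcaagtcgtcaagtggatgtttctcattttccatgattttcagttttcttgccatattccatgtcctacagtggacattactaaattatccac
Chl1: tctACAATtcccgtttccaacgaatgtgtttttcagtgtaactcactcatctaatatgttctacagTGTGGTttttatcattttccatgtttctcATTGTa
Trpm6: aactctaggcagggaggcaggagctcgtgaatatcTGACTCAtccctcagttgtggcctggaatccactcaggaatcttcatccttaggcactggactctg
Smyd3: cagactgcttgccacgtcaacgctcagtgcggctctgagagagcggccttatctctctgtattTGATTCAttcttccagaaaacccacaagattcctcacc
Fbxo36: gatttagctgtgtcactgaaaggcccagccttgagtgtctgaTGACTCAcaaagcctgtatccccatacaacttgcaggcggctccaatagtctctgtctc
The GC content of the first 3 was 32.7%, 35.6% and 33.7%, against a median of 51% over the 100 bp around all member summits. The 3 AP-1 examples had 52.5%, 50.5% and 50.5%.

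The rule used both WT and the deletion library, so their values are given first as a description. Fold enrichment, the summit pileup over background with 1 added to both, had a median of 6.62 in WT (middle 50% of members 5.15 to 9.2, range 2.67 to 48.7). In the deletion library the median was 9.22 (6.76 to 12.3, range 2.39 to 50.1). Over the 15449 members called in Cho replicate 1 the median there was 8.02. The deletion value was the higher one in 23623 members, 79.6%, against 75.2% of all shared peaks and 61.1% of shared promoter peaks.

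The size of that difference depended on the scale. The median log2 ratio of deletion to WT fold enrichment was 0.33 over members, 0.28 over all shared peaks and 0.09 over promoters. With summit pileups divided by library background it was 0.06 over members, -0.01 over all shared peaks and -0.16 over promoters. The ratio of fold enrichment fell with WT strength. Its median over members was 0.54 below a WT value of 5, 0.18 from 10 to 15 and -0.07 from 20 to 25. Over promoters it was 0.43, 0.00 and -0.08 in the same bins. Promoter peaks were stronger in WT, with a median of 9.29. The part of peak strength and library depth in these differences was not tested. Summit pileups had medians of 10 reads (WT) and 20 reads (deletion). A fold enrichment at least 2-fold higher in the deletion library was found for 2444 members, 8.24%, against a background of 7.77% of all shared peaks, and one at least 2-fold lower for 16 members, 0.0539% against 0.0679%. Both shares were near the background. On the pileup scale the shares were 3.47% higher and 1.41% lower, against 3.60% and 1.40%. Among the 4567 members with a pileup of at least 20 in both libraries, 1 was 2-fold higher and 1 was 2-fold lower, 0.0219% each, and the median log2 ratio was 0.05. Of the 20834 shared peaks of that kind, 0.13% were higher and 0.0048% lower, with a median of 0.00. This limit acts on the same reads as the ratio, and a member low in either library falls below it. Over all members the Spearman correlation between WT and deletion fold enrichment was 0.688 (n = 29668), and between WT and Cho replicate 1 it was 0.211 (n = 15449). These are correlations across regions that share a library each, and the regions are not replicates. The value with Cho replicate 1 cannot be set against the other, because that list was called with a constant background. Each of its intervals also gave the same value to every member it overlapped. A deletion peak that overlapped neighbouring members could likewise give its value to each, which also enters the 2-fold counts.

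**Figure D1:**
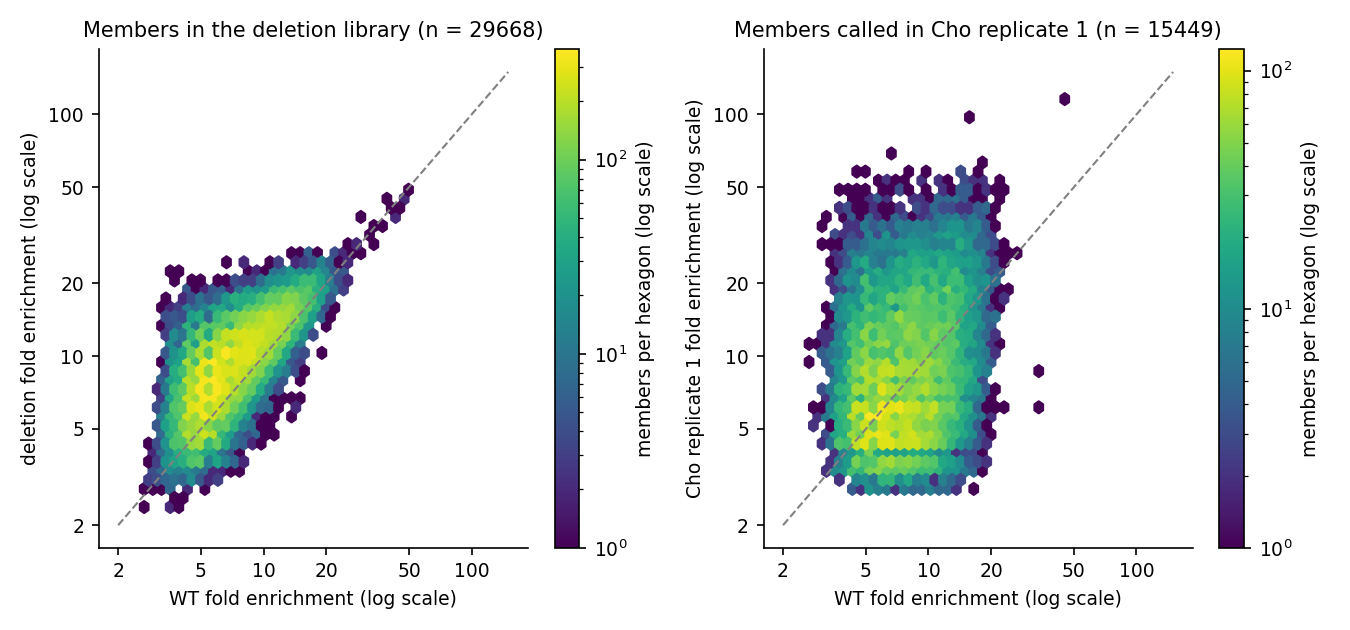
Each hexagon counts members by WT fold enrichment (horizontal, log scale) and by fold enrichment in the deletion library (left, n = 29668) or in Cho replicate 1 (right, members called there, n = 15449), with a dashed line at equal values. Members follow the line closely in the deletion library above a WT value of about 20, spread above it at low values, and spread widely in Cho replicate 1.

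The members with the largest and smallest ratios were named among those with at least 20 reads at the summit in both libraries. A member of Ehbp1, whose protein links endocytic vesicles to the actin cytoskeleton, had a fold enrichment of 5.77 in WT, 12.7 in the deletion library and 43.9 in Cho replicate 1. It lay 1840 bp from a TSS. A member of Atg10, an enzyme of autophagy, had 12.6, 22.2 and 22.8, and a member of Akap6, an anchor for protein kinase A, had 12, 21.1 and 10.6. The remaining 2 of the 5 highest were in D18Ertd653e (5.89, 10.7 and 37.6) and Gse1 (8.36, 14.6 and 19). All 5 were called in Cho replicate 1, which called 52.1% of all members and 59.6% of all shared peaks. Those shares are over peaks of all strengths and not over peaks with at least 20 reads. Calls of members rose with WT fold enrichment, from 40.9% below 5 to 86.3% from 15 to 20. At the other end, a member in intron 1 of Myof, a membrane repair protein, had 13.4 in WT and 6.6 in the deletion library and no listed peak in Cho replicate 1. Members of Myo10 (9.94 and 5.12), Auts2 (9.03 and 4.74), Amotl2 (6.72 and 3.89) and Nek7 (14 and 8.45) followed, and of the 5 only Myo10 and Amotl2 were called in Cho replicate 1, at 5.49 and 3.8. The 31-mer at the Auts2 summit occurred 2 times in the genome. Whether calls in Cho replicate 1 differ with the direction of the ratio was not tested. On the pileup scale the ratio at Ehbp1 was 1.91 (95% interval from counting error 1.17 to 3.24), at D18Ertd653e 1.84 (1.11 to 3.16) and at Gse1 1.78 (1.08 to 3.07). At Atg10 it was 1.23 (0.728 to 2.15) and at Akap6 1.33 (0.769 to 2.37), intervals that include equal values. The 5 lowest lay between 0.449 at Myof (0.241 to 0.824) and 0.577 at Amotl2 (0.375 to 0.887). All 10 were picked as extremes of 4567 members, and these intervals do not allow for that choice.

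The 1 kb limit cut through a continuous range. Just inside it, at 1001 bp, lay members of Wsb1 (WT 5.17, deletion 3.81, Cho replicate 1 9.71), Loxl2 (5.63, 5.68 and 8.45) and Siah3 (9.65, 12.3 and 3.38). Just outside lay peaks of 2310028H24Rik at 1000 bp (4.37, 6.07 and 10.6) and, slightly nearer, of Nek6 (5.27, 4.65 and 7.18) and D4Wsu53e (10.1, 10.8 and 6.33).

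Cho replicate 1 was independent of the rule, and the question was how many members it also called open. It called 15449 of 29668 members, 52.1% (51.5% to 52.6%), against 59.6% of all shared peaks. Intergenic shared peaks had nearly the same share, 51.4% (50.8% to 51.9%), exonic peaks 50.1% and promoter peaks 86.7%. The share moved with the strength of the WT peak. It was 40.9% below a WT fold enrichment of 5, 41.8% from 5 to 7, 56.6% from 7 to 10, 73% from 10 to 15 and 86.3% from 15 to 20. Above that it turned down, to 72.2% from 20 to 25 (57 of 79 members) and 18.2% at 25 or more (4 of 22, 5.19% to 40.3%). All 40 promoter peaks of at least 25 were called in Cho replicate 1.

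The 22 strongest members were unusual in sequence. Of these, 14 had a 31-mer at the summit that occurs more than once in the genome, and 5 matched the mitochondrial genome. In all 19 had 1 or both features. A repeated 31-mer was found in 2.25% of members below a fold enrichment of 5, in 25.3% from 20 to 25 and in 63.6% at 25 or more, against 3.88% of all shared peaks. Mitochondrial matches numbered 6 among all members (0.0202%, against 0.0398% of all shared peaks), had a median WT fold enrichment of 41.7, and none was called in Cho replicate 1. The WT and deletion lists hold 0 peaks on the mitochondrial genome. Without repeated and mitochondrial summits, the share called in Cho replicate 1 was 90.4% from 15 to 20 and 89.8% from 20 to 25 (53 of 59), and 1 of 3 members at 25 or more was called. Over all strengths, 16.6% of the 825 members with a repeated 31-mer were called in Cho replicate 1 (14.1% to 19.3%), against 53.1% of the others. How each library's reads were placed in repeated sequence was not tested.

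**Figure D2:**
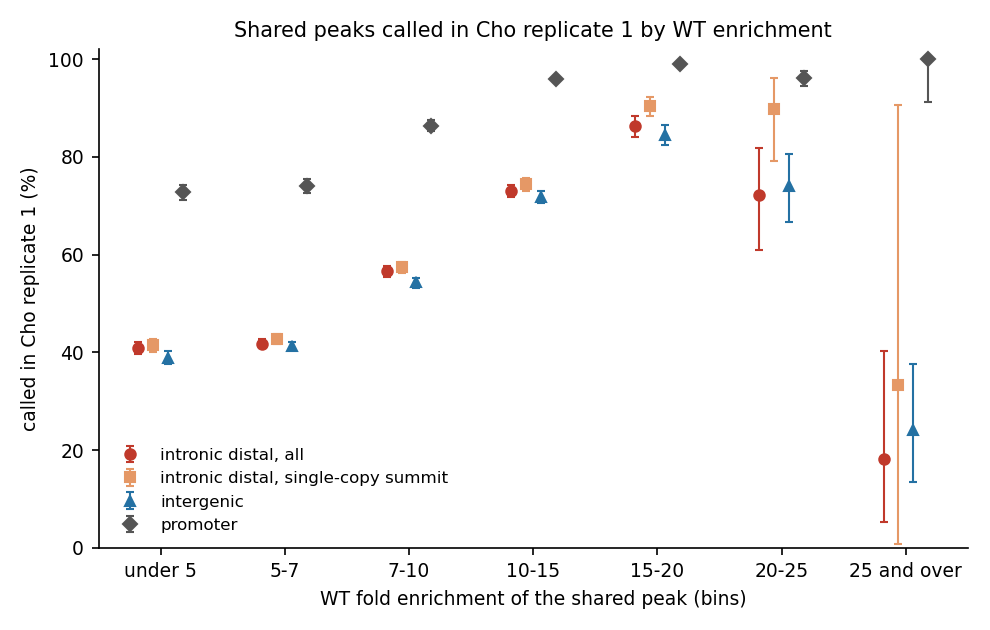
Points give the percentage of shared peaks called in Cho replicate 1 (vertical) in bins of WT fold enrichment (horizontal), for intronic distal peaks, those with a single-copy summit and no mitochondrial match, intergenic and promoter peaks, with 95% exact binomial intervals as bars. Intronic and intergenic peaks rise together from about 40% and fall above 20, where the single-copy intronic peaks from 20 to 25 stay at 89.8%.

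The 10 members of highest WT fold enrichment were all of this kind. The strongest lay in intron 6 of 7 of Tbx20, a heart transcription factor, with a fold enrichment of 48.7 in WT and 50.1 in the deletion library and no peak in Cho replicate 1. Over 173 bp its sequence was 91.9% identical to the mitochondrial genome. The next, in 2210408I21Rik, had 46.6 and 44.8, and its summit 31-mer occurred 56 times in the genome. A member of Chl1, a neural cell adhesion gene, had 44.9 in WT, 42.5 in the deletion library and 119 in Cho replicate 1, and its 31-mer occurred 4 times. Asxl3, Nedd4l, Arhgef4 and Kctd3 held the other mitochondrial matches, 84.2% to 93.2% identical, with WT values of 38.3 to 45.7. Gnb1l, Il31ra and Gphn held repeated 31-mers, with WT values of 33.5 to 40.5. Of the 10, Chl1 and Gphn (5.91) were called in Cho replicate 1. Fold enrichment of all 10 was nearly equal in WT and the deletion library (log2 ratios of -0.16 to 0.12), and by summit pileup over library background the deletion library had 0.53 to 0.71 of the WT value.

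With those features set aside, strong members, chosen after the values were seen, looked different. A member in intron 5 of 11 of Smyd3, a lysine methyltransferase, had 26.7 in WT, 28.7 in the deletion library and no listed peak in Cho replicate 1. Members of Gcap14 (25.5, 21.6 and 27.4), Uggt2 (24.1, 21.8 and 48.1), Mrps27 (24, 19.3 and 26.2) and Atxn10 (23.1, 19.4 and 26.2) had peaks in WT, the deletion library and Cho replicate 1. So did members of Fbxl13, Mnat1 and Serpinb1c, whereas that of Cenpp had none in Cho replicate 1.

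The sequence around the summits was not used by the rule. The motif most raised over other intron was AP-1, bound by Fos and Jun proteins, which many growth and stress signals activate. It was found within 100 bp centred on the summit in 5254 members, 17.7% (17.3% to 18.1%), against 2.97% of windows of the same length in eligible intron, 2.89% of windows 1 kb before the summit and 3.08% of those 1 kb after it. Intergenic shared peaks had it in 17% and promoter peaks in 3.63%. Matches were 2.34 per kb within 20 bp of the summit and 0.323 per kb at 400 to 500 bp. The share rose with WT fold enrichment, from 14.4% of members below 5 to 28.9% of members from 15 to 20, and 0 of the 22 members at 25 or more held a match (interval 0% to 15.4%).

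Motifs of other factors differed less from intron. The CTCF core, part of the site of the main insulator protein, was in 3.15% of members and 0.858% of intron windows. The Runx motif, read by Runx2 and Runx3, regulators of chondrocyte maturation, was in 14.8% and 7.43%. TEAD, the DNA-binding partner of Yap and Taz, was in 12.6% and 5.33%, the NFI core in 11.2% and 4.93%, the E-box CAGCTG in 9.81% and 3.9%, and the GC box GGGCGG in 4.69% and 0.986%. The ETS core GGAAGT was in 7.52% and 5.64%. Several AT-rich motifs were less frequent in members than in intron. The Sox motif, shared by Sox9, Sox5 and Sox6, was in 8.92% of members, 19% of intron windows and 15.9% of windows 1 kb before the summit. The homeodomain core TAAT was in 31% and 50.1%, the Pitx motif TAATCC in 2.49% and 4.06%, and the NF-Y motif CCAAT in 11.5% and 14%. In windows 1 kb before and after the summit NF-Y was in 12.2% and 12%, close to its share in members. There the homeodomain core was in 42% and 41.9%, Pitx in 3.69% and 3.85% and the GC box in 1.85% and 1.92%. A pair of Sox motifs on opposite strands within 12 bp was in 22 members, 0.0742%, against 0.315% of intron windows. The Pitx motif contains the homeodomain core, and AP-1 and the E-box read the same on both strands. Member windows had a median GC content of 51%, windows 1 kb away 46% and intron windows 43%, and the part of base composition in these shares was not tested.

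AP-1 also divided the members by their call in Cho replicate 1. It was in 26.9% of members called there (26.2% to 27.6%) and in 7.69% of the others (7.26% to 8.14%), a ratio of 3.5. For the other 12 motifs that ratio lay between 0.637 and 1.38. Read the other way, 79.2% of members with AP-1 were called in Cho replicate 1 (78.1% to 80.3%) and 46.2% of members without it (45.6% to 46.9%). The gap was present at every strength below 25. Below a WT fold enrichment of 5 it was 23.7% against 7.97%, from 10 to 15 it was 27.3% against 5.47%, and from 20 to 25 it was 42.1% (24 of 57) against 0 of 22. Within Cho replicate 1 the share of members with AP-1 rose from 16.8% where its fold enrichment was below 5 to 24.8% from 5 to 10, 34% from 10 to 20 and 37.8% at 20 or more. Intergenic shared peaks showed the same split, 25.1% against 8.45%, and promoter peaks did not, with 3.53% against 4.3%. The split was thus not limited to introns.

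Members with AP-1 also had the larger ratio of deletion to WT. Their median log2 ratio was 0.47, against 0.31 without it, and on the pileup scale 0.21 against 0.03. The rule used both libraries, so these ratios are a description. At least 2-fold higher values in the deletion library were found in 13.2% of members with AP-1 and 7.17% of members without it, where 7.77% of all shared peaks had them. On the pileup scale the share with AP-1 was 5.46%, against 3.60% of all shared peaks. Of the 4567 members with a pileup of at least 20 in both libraries, only 1 was 2-fold higher, so these counts rest on members with fewer reads. Among members with a pileup of at least 20 in both libraries the medians were 0.13 (n = 1029) and 0.02 (n = 3538), and on the pileup scale both were below 0, at -0.06 and -0.18. In intergenic peaks they were 0.48 and 0.31. For the other 12 motifs, the median with the motif lay between 0.24 and 0.36. With 1 library per genotype, a difference between genotypes and one between libraries or cultures cannot be told apart.

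**Figure D3:**
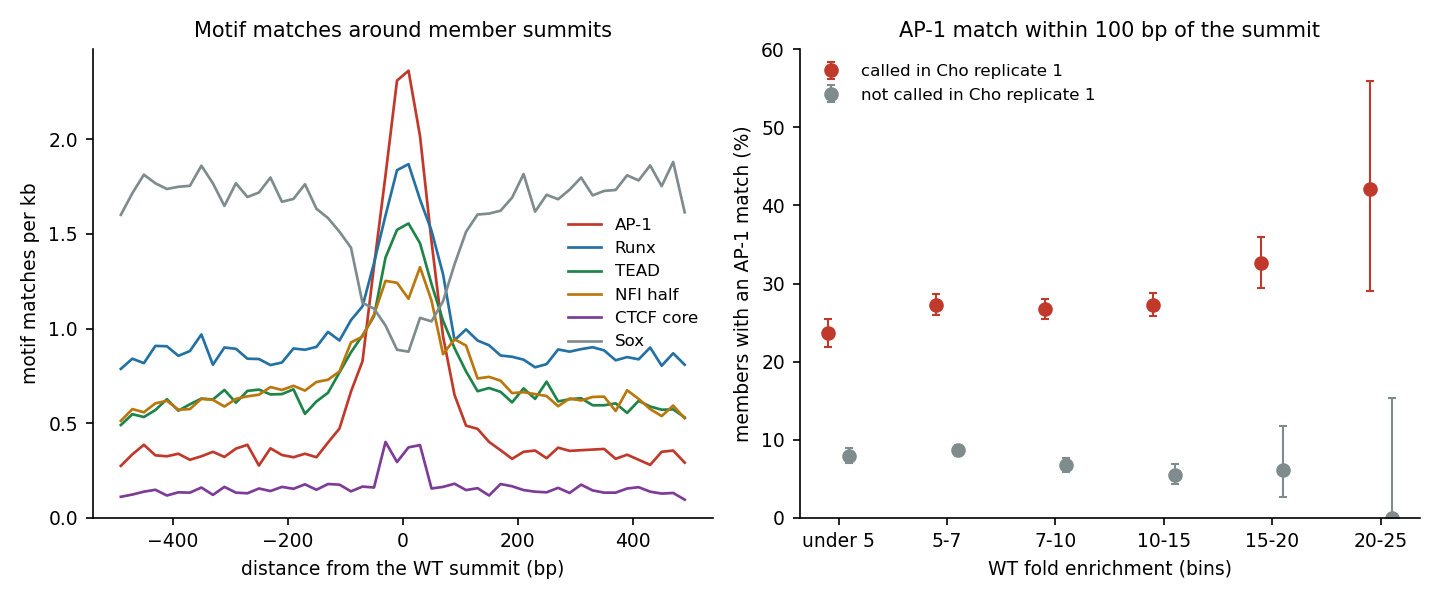
Left, motif matches per kb (vertical) by distance from the WT summit in bp (horizontal) over the 29668 members. Right, percentage of members with an AP-1 match within 100 bp centred on the summit (vertical) in bins of WT fold enrichment (horizontal), called or not called in Cho replicate 1, with 95% exact binomial intervals. AP-1 reaches 2.34 matches per kb at the summit while Sox dips to 0.883, and the called members lie above the others in all 6 bins.

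The 3 AP-1 examples shown above were strong in Cho replicate 1, by which they were chosen. The Trpm6 member (intron 38 of 38, 140477 bp from the start) had a fold enrichment of 18.1 in WT, 16.5 in the deletion library and 60 in Cho replicate 1. The Smyd3 member in intron 10 of 11 had 14.2, 15.1 and 56.2, and the Fbxo36 member in intron 2 of 3 had 14, 16.9 and 49.8. Their WT summit pileups were 41, 39 and 24 reads. The Sox5 member, with an AP-1 match at each end of its window, had 19.2 in WT, 19.2 in the deletion library and 21.1 in Cho replicate 1.

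Members lay at a median of 23973 bp from the nearest protein-coding TSS (middle 50% 9326 to 56190 bp), and 12.1% lay over 100 kb away. In 79.8% the nearest TSS belonged to the host gene, and 656 members lay in more than 1 protein-coding gene body. Eligible intron covered 847 Mb and held 35 members per Mb. The density was highest next to the limit, 57 per Mb at 1 to 2 kb. It was 34.9 at 2 to 5 kb, between 39 and 39.9 from 5 to 50 kb, 34.5 at 50 to 100 kb and 20.9 beyond 100 kb. The share called in Cho replicate 1 was 64.8% at 1 to 2 kb, 55.9% at 2 to 5 kb and 50.2% to 51.7% in every bin farther out. WT fold enrichment changed little with distance, with medians of 6.08 to 6.77.

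First introns held more members for their length than later ones. Of all members 30.3% (29.8% to 30.9%) lay in the first intron, which makes up 25.3% of eligible intron. This counts all 224 members of Gm20388, a gene model of 4435 kb described below, and without gene bodies over 2 Mb the share was 29.9%. The density was 42 per Mb in first, 37.7 in second and 31.3 in later introns. At equal distance from a TSS first introns had 46.8 against 35.3 per Mb at 1 to 5 kb, 47.5 against 36.3 at 5 to 20 kb, 44.2 against 37.3 at 20 to 50 kb and 26.4 against 27.2 beyond 50 kb. The difference was thus seen within 50 kb of a TSS and not farther away. Members of first introns were called in Cho replicate 1 in 55.8%, of second introns in 52.1% and of later introns in 49.7%.

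**Figure D4:**
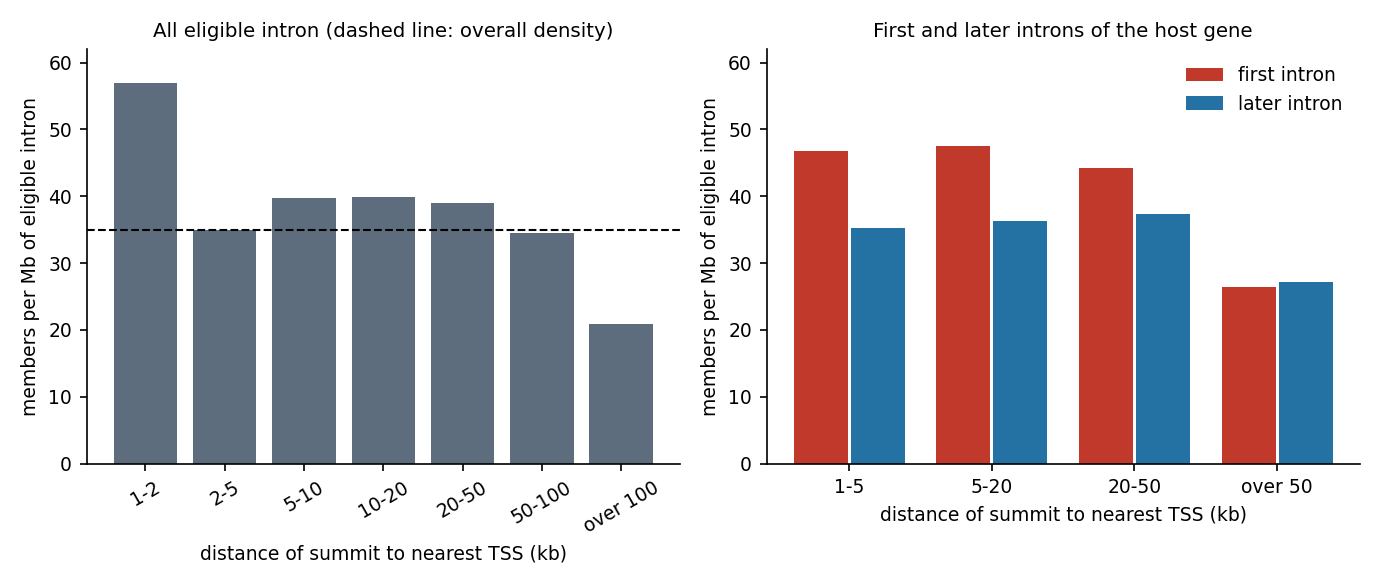
Bars give members per Mb of eligible intron (vertical) by distance of the summit from the nearest TSS in kb (horizontal), for all eligible intron (left, dashed line at the overall 35 per Mb) and for first and later introns of the host gene (right). Density is highest at 1 to 2 kb, with 57 per Mb, and first introns exceed later ones up to 50 kb.

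The members were spread over 7630 host genes, 35.6% of 21418 autosomal protein-coding genes, of which 17457 had eligible intron. Of the host genes, 3005 had 1 member, 2793 had 2 to 4, 1108 had 5 to 9 and 724 had 10 or more, and those 724 genes held 40.6% of all members. Neighbouring members of 1 gene lay a median of 8.66 kb apart, and 19.5% of the gaps were under 2 kb. Genes with members more often had a promoter peak. Of genes with no member 52.2% had a WT promoter peak, of those with 1 member 74.7%, of those with 2 to 4 80.7%, of those with 5 to 9 88.7% and of those with 10 or more 94.2%. Promoter peaks of Cho replicate 1, which the rule did not use, gave 48.9%, 71%, 77.1%, 86.4% and 92.3%. The genes with no member include those without eligible intron, which could hold none and enter the shares of 52.2% and 48.9%. Longer genes have more intron to hold members, so genes of like length were compared too. Among gene bodies of 10 to 30 kb the Cho replicate 1 shares were 66% without a member (64.5% to 67.5%) and 70.5% with at least 1 (68.5% to 72.5%), and among those of 30 to 100 kb they were 68.8% (66.6% to 71.1%) and 80.2% (78.8% to 81.6%).

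The host gene with the most members, 224, was Gm20388, a predicted gene model of 4435 kb that spans 72 other protein-coding genes. For none of its members was its own TSS the nearest. Fgfr2, a receptor for fibroblast growth factors, came next with 66, in an annotated body of 3009 kb that spans 31 other genes, and its own TSS was the nearest for 23 of them. For these hosts the assignment follows the gene model alone. Auts2, a developmental regulator, held 57 members in 1106 kb, and its own TSS was the nearest for all. Wwox held 51, Pde4d, a cAMP phosphodiesterase, 50, Arhgap26 49, 2010111I01Rik 45, Thsd4 44, Msi2, an RNA-binding protein, 42 and Atxn1 38. Their share called in Cho replicate 1 ran from 27.3% in Thsd4 to 60% in Pde4d and 2010111I01Rik.

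By density the order was another one. Nfic, one of the NFI transcription factors, had 9 members in 24 kb of eligible intron, or 375 per Mb, of which 7 were called in Cho replicate 1. Smad7, an inhibitor of TGF-beta signalling, had 8 members, all called there, with WT fold enrichment of 5.65 to 9.8, deletion values of 4.5 to 8.15 and Cho replicate 1 values of 3.8 to 13.5. Rara, a receptor for retinoic acid, had 11 members, 8 of them in its first intron, with WT values of 3.31 to 14.2. Tbc1d10a, Mxra7, Wnt9a, Bahcc1, Klf3, Best3 and Cspg4 followed with 274.5 to 320 per Mb. Wnt9a, a Wnt ligand active in joints, had 1 of 7 members called in Cho replicate 1, and Cspg4, a proteoglycan of mesenchymal cells, had 4 of 7.

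Genes of the cartilage matrix held 56 members in 15 of 20 listed genes, 82 per Mb of their eligible intron, against 35 per Mb over all. Matn1, Matn4, Ucma, Cilp and Chad had none. Of the 56, 27 were called in Cho replicate 1, 48.2% (34.7% to 62%), against 52.1% of all members and 59.6% of all shared peaks. Of the same 56, 3 were at least 2-fold higher in the deletion library, 5.36% against the 7.77% of all shared peaks. Among them was a Col27a1 member with 4.39 in WT, whose deletion value of 12.5 was also given to its neighbour with 13.2 in WT. Their median WT fold enrichment was 7.22. The list was chosen for the tissue, and its counts are a description.

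Col2a1, the main collagen of cartilage, had 3 members. The one in intron 1, 3244 bp into the gene, had a fold enrichment of 3.89 in WT, 2.62 in the deletion library and 12.2 in Cho replicate 1. The member in intron 14 had 3.71, 3.74 and 6.76, and the one in intron 6 had 2.85 and 2.83 and no listed peak in Cho replicate 1. These low values stood on high pileups. The WT summits held 29, 27 and 20 reads, against a median of 10 over all members, and the local background in WT was 6.36 to 6.72 reads, against a median of 0.523 over members. Over the most frequent background of each library, the intron 1 summit stood 80.3-fold in WT, 55.9-fold in the deletion library and 20.5-fold in Cho replicate 1. The last value rests on a constant background, and its size cannot be set against the others. A local background over 3 was found for 7 of the 56 matrix members, 12.5%, and for 1.72% of all members.

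Acan, the core protein of the large cartilage proteoglycan, had 3 members, all in its first intron. The strongest had 9.57 in WT, 11.1 in the deletion library and 2.96 in Cho replicate 1. The others had 4.88 and 5.89, and 5.29 and 4.93, with no listed peak in Cho replicate 1. Other cartilage collagens held 1 (Col9a2) to 19 (Col27a1) members. Col27a1 had 19 members, of which 13 were called in Cho replicate 1, with WT fold enrichment of 3.62 to 13.2, deletion values of 3.56 to 13.6 and Cho replicate 1 values of 2.96 to 27.9. Col11a1 had 7 members, the strongest with 12.1 and 12.8, and Col9a1 had 5, the strongest with 12.6 in WT, 21.5 in the deletion library and 4.22 in Cho replicate 1. The strongest matrix member lay in intron 7 of Matn3, a matrilin, with 15.8, 15.4 and 16.5. Prg4, lubricin of the joint surface, chosen after its values were seen, had 1 member, with 6.62, 13.6 and 31.7, a log2 ratio of 1.04 from WT and deletion pileups of 8 and 28.

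Chondrocyte transcription factors held 227 members in 17 of 20 genes, 47.5 per Mb. In Cho replicate 1, 144 were called, 63.4% (56.8% to 69.7%), against 52.1% of all members and 59.6% of all shared peaks. Lists of other cell types, given below, reached 62.2%. Nkx3-2, Pitx1 and Foxc1, with at most 6.5 kb of eligible intron each, had none. Of the 227, 14 were at least 2-fold higher in the deletion library, 6.17% against 7.77%. Sox5 had 28 members with WT fold enrichment of 4.37 to 19.2, deletion values of 5.1 to 19.2, and 12 called in Cho replicate 1, at 6.33 to 21.1. The deletion value was the higher one in 23 of them, where 79.6% of all members had a higher value in that library. Sox6 had 23 members, WT 3.34 to 15.2 and deletion 4.17 to 16, with 11 called in Cho replicate 1. Its strongest, in intron 4, had 15.2 in WT and 13.5 in the deletion library and no listed peak in Cho replicate 1.

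The other members of the list differed in how far Cho replicate 1 shared them. Runx2, needed for chondrocyte hypertrophy and bone, had 18 members, 12 called there, and its strongest had 17.8, 16.2 and 6.76. The one with the highest Cho replicate 1 value among them, 31.2, chosen after the values were seen, had 10.9 in WT and 14.1 in the deletion library. Nfib had 26 members, 20 called, and Nfatc2 had 8, all called, the strongest with 17.8, 15.3 and 11. Gli2, an effector of hedgehog signalling, had 14, with a strongest member of 18.5 in WT, 22.2 in the deletion library and 18.6 in Cho replicate 1. Creb5, chosen after its values were seen, had 6 members, of which 1 was called. Sox9 has short introns, and its only member, in intron 1 of 2 and 1165 bp from the nearest of its own start sites, had 3.81 in WT, 3.28 in the deletion library and no listed peak in Cho replicate 1.

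Genes of cartilage signalling held 286 members in 22 of 25 genes, 74.9 per Mb. In Cho replicate 1, 135 were called, 47.2% (41.3% to 53.2%), against 52.1% of all members and 59.6% of all shared peaks. Of the 286 members, 66 belong to the wide Fgfr2 model. Fgfr3, Gdf5 and Npr2 had none. Of the 286, 11 were at least 2-fold higher in the deletion library, 3.85% against 7.77%, and 0 were 2-fold lower, where 0.0679% of all shared peaks were. Prkg2, the cGMP-dependent kinase of the growth plate, had 4 members, of which the strongest, in intron 15 of 18, had 22.3 in WT, 18.3 in the deletion library and 55.3 in Cho replicate 1. The strongest member of Fgfr2 had 24.5 and 19.5, and that of Ror2, a Wnt receptor with 29 members, had 17.2 and 13.6. Neither had a listed peak in Cho replicate 1, and their summit 31-mers occurred 4 times (Fgfr2) and 1355 times (Ror2) in the genome. The strongest of the 23 members of Igf1r, the receptor for insulin-like growth factor, had 16.3, 14.8 and 31.2. Over all its members Ror2 had 5 of 29 called in Cho replicate 1, and Acvr1, a BMP receptor, had 9 of 9, a pair chosen after the values were seen. Wwp2, a ubiquitin ligase whose gene holds the cartilage microRNA miR-140, had 16 members, 5 called in Cho replicate 1, with WT values of 2.86 to 13.7 and deletion values of 3.41 to 13.9.

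**Figure D5:**
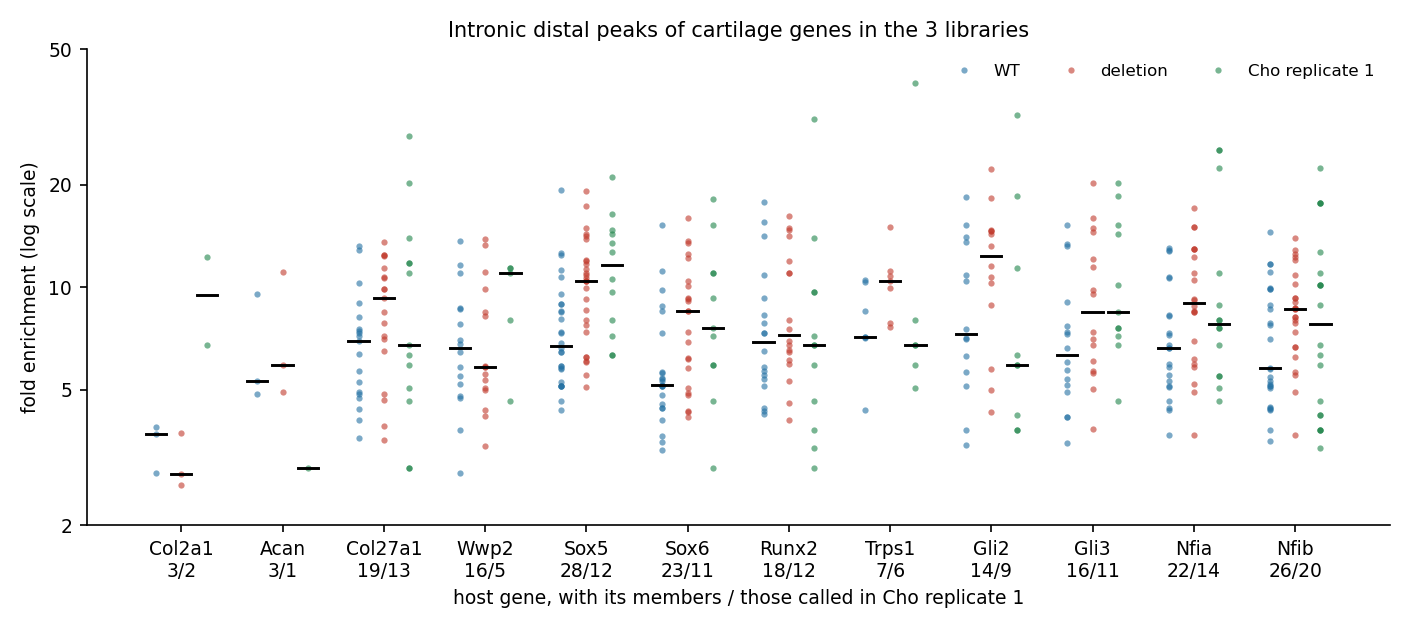
Points are the members of 12 cartilage genes, with fold enrichment on a log scale (vertical) in WT, the deletion library and Cho replicate 1, black lines are medians, and the numbers under each gene (horizontal) give its members and those called in Cho replicate 1. Sox5 has 28 members and Acan 3, and the WT and deletion ranges overlap in every gene shown.

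The lists of other cell types give a scale for these counts. Fibroblast and bone genes had 37 members in 9 of 15 genes, 70 per Mb, below the matrix and signalling lists (82 and 74.9) and above the transcription factor list (47.5), with 23 called in Cho replicate 1. Single genes weigh on this order. Fgfr2 held 66 of 286 signalling members and 1472 of 3818 kb of that list's eligible intron, and Col27a1 held 19 of 56 matrix members. The lists were not compared at equal distance from a TSS. Dcn, a proteoglycan of connective tissue, had 1 member, with 16.6 in WT, 23.8 in the deletion library and 20.7 in Cho replicate 1, Col5a1 had 10 members, the strongest with 11.9, 8.66 and 6.33, and Col1a1 and Col1a2 had none. Endothelial genes had 37 members in 7 of 10 genes, 43.1 per Mb, of which 20 were in Erg, a transcription factor also known from cartilage, whose strongest member had 18, 16.9 and 14.4. The strongest endothelial member, in Flt1, had 25.4 and 18.4 and no listed peak in Cho replicate 1, and its 31-mer occurred 10 times in the genome. Epithelial genes had 15 members (33.4 per Mb) and muscle genes 24 (27.6 per Mb), and in the 12 neuronal genes there were 72 in 6800 kb of eligible intron (10.6 per Mb). Blood genes had 7 members, 9.36 per Mb. In Cho replicate 1, 62.2% of fibroblast and bone, 61.1% of neuronal and 57.1% of blood members were called, against 52.1% of all members. The shares were 54.2% in muscle, 48.6% in endothelial and 46.7% in epithelial genes. At least 2-fold higher values in the deletion library were found for 5 of the 15 epithelial members, 9 of the 72 neuronal, 4 of the 37 endothelial, 2 of the 24 muscle, 1 of the 37 fibroblast and bone and 0 of the 7 blood members, against 7.77% of all shared peaks. No member of any list was 2-fold lower, where 0.0679% of all shared peaks were, so these lists are too small to show a difference. WT promoter peaks were found for 16 of 20 matrix genes, 19 of 20 of the transcription factors, 25 of 25 signalling genes, 13 of 15 fibroblast and bone genes, 6 of 10 endothelial, 7 of 12 neuronal, 2 of 14 muscle, 1 of 9 epithelial and 0 of 9 blood genes. Promoter peaks of Cho replicate 1 were found for 10 of 20 matrix and 10 of 15 fibroblast and bone genes. They were found for 19 of 20 transcription factors, 21 of 25 signalling, 6 of 10 endothelial and 6 of 12 neuronal genes. In the remaining lists, 2 of 14 muscle, 2 of 9 blood and 0 of 9 epithelial genes had them. The defining fibroblast genes were thus open too, and whether members came from chondrocytes or from other cells of the culture was not tested. In bulk samples, fewer cells of a type and less open chromatin per cell cannot be told apart.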

How the data were processed

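ATAC-Seq, which reads open chromatin from where the Tn5 transposase inserts sequencing adapters, was compared between 1 WT and 1 deletion library, with Cho replicate 1 as a further library. Per the study's methods and the submitters' processing notes, the authors preprocessed reads with fastp, mapped them to mm9 with Bowtie2 (2.4.4), used Picard and SAMtools (1.9), and called peaks with MACS2 (2.2.4) at a q-value of 0.05. How reads were shifted or extended before peak calling was not given in the sources used here. The deposited lists give, for each peak, a fold enrichment (a ratio of summit pileup to background, 1 added to both), the −log10 p-value, the −log10 q-value and a whole-number score made from the latter. The lists hold no read counts, so the depth of a library is unknown beyond its background.

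Peaks were assigned with GENCODE M1 gene models on NCBIM37, the assembly called mm9. The members were found by the stated rule. The deletion value of a member was that of its strongest overlapping deletion peak, so neighbouring members could take the value of the same deletion peak. Cho replicate 1 was reduced to its strongest summit per interval. Cho replicate 2 was not used here, because 99 of its 148330 peaks lay on sequences that NCBIM37 lacks and 325 ended past a chromosome end, whereas the labels name mm9. Whole summit pileups were solved from fold enrichment and p-value under a Poisson model, within 0.01 of the −log10 p-value. They were found for 100% of WT and deletion peaks and 99.918% of Cho replicate 1 entries. A pileup was divided by the most frequent background of its library where libraries were compared on that scale.

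Introns were numbered along the longest-spanning protein-coding transcript of the host gene, which is the gene body around the summit with the nearest start site of its own. Intron over 1 kb from any protein-coding TSS and outside exons ("eligible intron") was sampled every 500 bp, and motif windows in it every 2 kb. The 31-mer centred on each summit was counted in the genome, and 201 bp were compared with the mitochondrial sequence by blastn 2.17.0 (e-value 1e-10, at least 50 bp). Other work used Python 3.11.15, pandas 2.3.3, numpy 2.4.6, scipy 1.17.1 and pysam 0.24.0, with figures drawn in matplotlib 3.10.9.

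With 1 library per genotype no test was possible and no p-value is given. Intervals around shares are 95% exact binomial (Clopper-Pearson) and reflect counting error alone. Groups came from the sample labels. The scripts were tested on simulated data. The members, gene lists, motifs and naming rules were chosen with earlier results of these data known. Named members were the 10 of highest WT fold enrichment, the 5 highest and 5 lowest ratios of deletion to WT among members with a pileup of at least 20 in both, and the strongest member of up to 4 genes per list. Named host genes were the 10 with most members and the 10 of highest density. The strongest members of the genes whose sequences are shown, and the members at the 1 kb limit, were also given by rule. The other members of Col2a1 and Acan are given so that all members of these genes are shown, and further members were chosen after their values were seen. One strong member is not reported here.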

Additional observations from a re-analysis of the deposited data

How the results depend on the processing

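The number of members ranged from 21032 to 30217 and that of host genes from 6688 to 7756 over all alternatives, including the added ones, all within 1.5 times the reported counts. The share called in Cho replicate 1 was 50.2% with overlap of at least 50% of the WT interval, 41% with Cho replicate 1 peaks of q below 1e-5, 50.2% where the Cho interval had to hold the WT summit, 51.4% for members over 2 kb from a TSS, 58.7% for members with q below 1e-5 in both lists, and 53.1% without repeated 31-mers and mitochondrial matches. The median log2 ratio of deletion to WT was 0.06 by summit pileup over library background, 0.85 by −log10 q-value, 0.29 with q below 1e-5, 0.34 over 2 kb from a TSS, and 0.05 for members with a pileup of at least 20 in both libraries. The first-intron share was 37.9% counting any transcript and 28.4% over 2 kb from a TSS. The median TSS distance was 27712 bp to the host gene's own start and 23433 bp with q below 1e-5. With windows of 200 bp, the share with a motif was 24.9% for AP-1, 19% for Sox, 24.1% for Runx, 20.7% for TEAD, 4.62% for the CTCF core and 19% for the NFI core, as a longer window must hold more. With q below 1e-5 it was 18.8% for AP-1, 8.51% for Sox, 13.4% for TEAD and 3.38% for the CTCF core. For the other values the cause was not tested. None of the results in this paragraph changed direction. The exclusions of repeated or mitochondrial sequence, of gene bodies over 2 Mb and of low pileups were chosen after seeing the data.

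No paired analysis was possible because each genotype had 1 library, which also left no replicate to omit. A difference between WT and deletion is therefore one between 2 libraries, and genotype and library cannot be told apart. At a WT pileup of 10, the median over members, counting error limits any single ratio. A member not called in Cho replicate 1 had no listed peak there, which does not show closed chromatin.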
